A study of Mus musculus with 6 samples.

Results

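The genes described here encode 9 enzymes that carry an iron-sulfur cluster and work outside the mitochondrial matrix or, for some forms, in both places. They were chosen by a fixed list of Ensembl identifiers, and all 9 were found among the 62492 identifiers of the table. They are the DNA helicases ERCC2, BRIP1 and RTEL1, the base excision repair glycosylases NTHL1 and MUTYH, the tRNA modifiers ELP3 and CDKAL1, and the nucleotide enzymes PPAT and DPYD. Of these, 7 had a mean of at least 1 FPKM (fragments scaled to gene model length and to the library's fragments) over the 6 libraries and entered the tests. RTEL1 and MUTYH lay below that level.

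Iron-sulfur clusters are small cofactors of iron and sulfide that enzymes use for electron transfer, radical chemistry or structural support. Proteins of the cytosol and nucleus receive theirs from a cytosolic assembly machinery, whose targeting complex hands the cluster to each client protein. YAE1 and LTO1 form an adaptor that links this targeting complex to ABCE1, an iron-sulfur ATPase that splits ribosomes after termination. The enzymes described here are other clients of the same machinery, so they share the cofactor with ABCE1 but have unrelated substrates. RNA levels say nothing about whether the proteins carry their cluster.

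RNA was sequenced from A375, an established human melanoma cell line, after lentiviral delivery of Cas9 with a guide RNA and selection with puromycin at 10 µg/mL, and cells were collected 7 days after selection. Control cells carried Cas9 with guides against LacZ or Luciferase (genotype wild type in the labels), the ABCE1 group carried guides titled sgAbce1, and the YAE1 group guides titled sgYAE1. Each of the 3 groups had 2 libraries. Nothing in the labels tells if both libraries of a group had 1 guide or 2, or were grown apart, so the p-values reflect library-to-library spread that may be only technical. The cells were not described as clones, and no group had guides against another human gene. The genotype field names Abce2 and Yae2 knockouts for the second library of each pair, so groups follow the titles.

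Depth, worked out from the spacing of the FPKM values, was 15713011 to 18399718 fragments per library. Over the 12578 genes tested, Pearson r was 0.992 to 0.994 within groups and 0.942 to 0.98 between them. The table pairs no identifier with a symbol, so the targeted genes, melanocyte markers and the partner genes of these enzymes were not analysed here, and the labels could not be checked against ABCE1 or YAE1. Names of the 9 enzymes come from the list that defined them.

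The level of these genes differed over a wide range. In the controls PPAT was the highest at 21.1 ± 0.494 FPKM (SD, n = 2). ELP3 (8.75 ± 0.0417) and DPYD (8.73 ± 0.0144) followed, and their libraries overlapped. BRIP1 came next at 5.57 ± 0.0648 FPKM and NTHL1 at 4.85 ± 0.0363. CDKAL1 (3.81 ± 0.202) and ERCC2 (3.73 ± 0.153) also overlapped in the controls. MUTYH at 0.326 ± 0.0103 FPKM and RTEL1 at 0.12 ± 0.0329 were the lowest. Among the 12578 tested genes, 81.3% had a lower mean than PPAT and 32.2% a lower mean than BRIP1. The order changed with the guides. BRIP1 stood 4th of 9 in the controls and 7th in both the ABCE1 and the YAE1 libraries, and CDKAL1 moved from 6th to 4th in both.

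**Figure D1:**
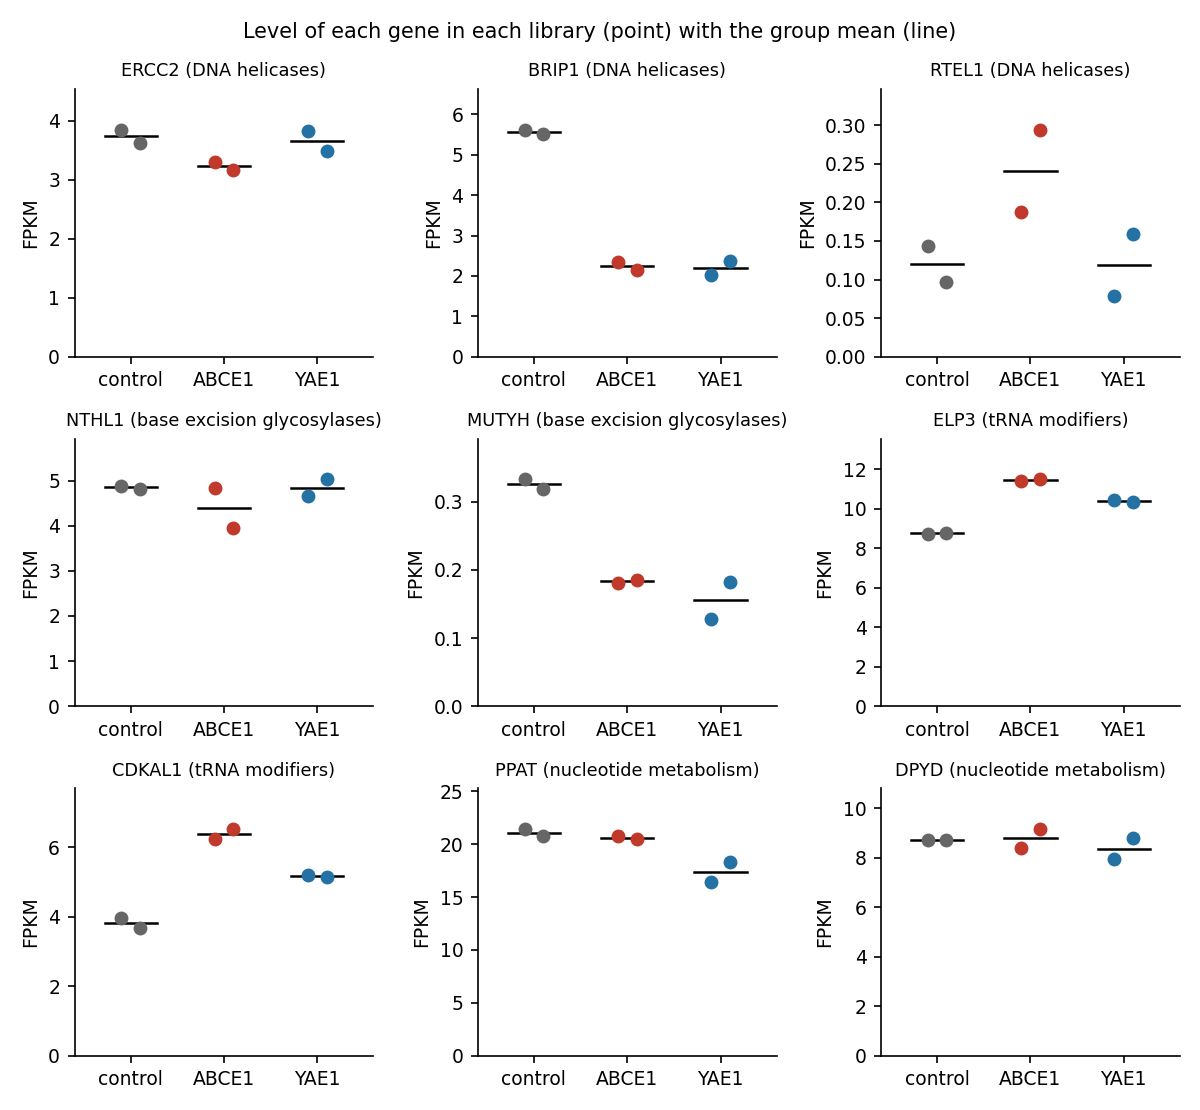
FPKM (vertical axes, each starting at 0) of the 9 genes in the control, ABCE1 and YAE1 libraries. Points are libraries, lines are group means of 2 libraries. BRIP1 lies near 5.57 FPKM in the controls and near 2.2 in all 4 other libraries, CDKAL1 and ELP3 are highest with ABCE1 guides, and DPYD overlaps between all groups.

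Compared with control guides, ELP3 and CDKAL1 rose and BRIP1 fell with ABCE1 guides. The same 3 genes moved the same way with YAE1 guides, where PPAT also fell. ERCC2, NTHL1 and DPYD passed the test in neither comparison. With ABCE1 guides 2 of the 7 tested genes were higher and 1 lower (limma on log2(FPKM + 1), adjusted p under 0.05), beside 37.5% higher and 20.4% lower over all tested genes. With YAE1 guides 2 were higher and 2 lower, beside 34.2% higher and 17.6% lower over all tested genes. The shares among the 7 lie near these, so the counts are no result about the enzymes as a group. By the plainer measure of libraries that do not overlap, 2 of the 7 (ELP3 and CDKAL1) were above the controls with ABCE1 guides and 3 (ERCC2, BRIP1 and PPAT) below, beside 50.6% and 30.9% of all tested genes. With YAE1 guides 2 (ELP3 and CDKAL1) were above and 2 (BRIP1 and PPAT) below, beside 49.8% and 27.9%. The median log2 difference of the 7 was -0.03 for ABCE1 and -0.02 for YAE1 guides, beside medians of 0.10 in both comparisons over all tested genes. Both comparisons use the same 2 control libraries. Setting every library to the same median (centring) moved the median of all genes by -0.14 with ABCE1 guides, and it turned the share of calls that were higher from 64.8% to 45.5%. With YAE1 guides the share went from 66.0% to 49.1%. FPKM are shares of a library, so a change in total RNA per cell does not show, and fewer expressing cells and less RNA per cell cannot be told apart.

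**Figure D2:**
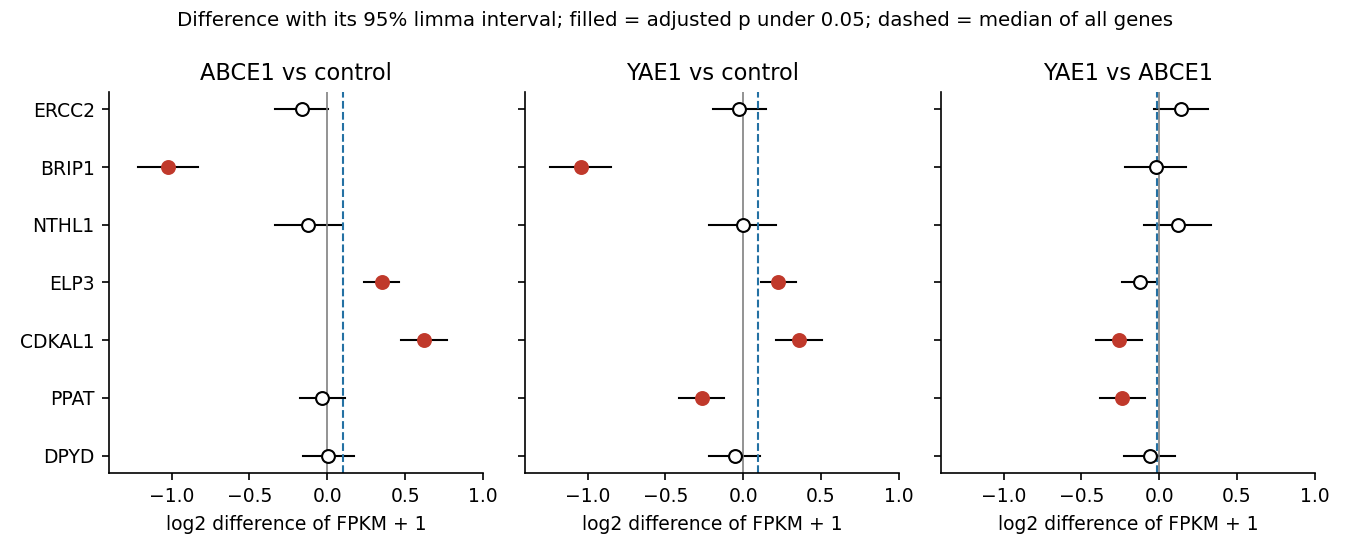
Log2 difference of FPKM + 1 (horizontal axis) for the 7 tested genes in the 3 comparisons, with 95% limma intervals. Filled points passed an adjusted p of 0.05, and the dashed line is the median of all 12578 tested genes. BRIP1 stands at -1.02 and -1.05 against control, and CDKAL1 at 0.62 and 0.36.

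The helicases ERCC2, BRIP1 and RTEL1 belong to the same iron-sulfur helicase family. BRIP1 (ENSG00000136492), also called FANCJ, binds BRCA1 and unwinds DNA in crosslink repair and at G-quadruplexes. It stood at 5.62 and 5.53 FPKM in the control libraries, at 2.33 and 2.14 in the ABCE1 libraries and at 2.01 and 2.36 in the YAE1 libraries. Every library with ABCE1 or YAE1 guides was below both controls, and the ABCE1 and YAE1 libraries overlapped. The group mean fell by 59.9% with ABCE1 guides and by 60.7% with YAE1 guides. On the log2(FPKM + 1) scale the differences were -1.02 ± 0.08 (SE, limma adjusted p = 0.00011) and -1.05 ± 0.08 (limma adjusted p = 0.00016). The pseudocount understates the change of a gene at this level. Among the 12578 tested genes, 1.56% had a lower value than BRIP1 with ABCE1 guides and 1.3% with YAE1 guides. The difference between YAE1 and ABCE1 guides was -0.02, with a 95% interval of -0.22 to 0.17 (limma adjusted p = 0.86). The values rest on 985.5 and 1046.5 fragments in the controls and on 343 to 408.5 in the other libraries, where counting alone gives an error of up to 5.4%. Fragment numbers came in steps of 0.5.

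BRIP1 was also the 1 gene of the 9 on a list of S-phase genes, built from pairs of human cell-cycle markers distributed with an R package, in which it was the higher member in 125 of 126 S-phase pairs. Genes leading in the other phases were not counted, and this list, which includes BRIP1, was looked up with the results known. Of its 177 tested genes, 89 were lower and 30 higher with ABCE1 guides, with a median log2 difference of -0.21, and 94 were lower and 27 higher with YAE1 guides, with a median of -0.18 (limma, adjusted p under 0.05). Over all tested genes 20.4% were lower and 37.5% higher with ABCE1 guides, and 17.6% and 34.2% with YAE1 guides. BRIP1 lay below the list's lower quartile, which was -0.57 in the ABCE1 comparison and -0.65 in the YAE1 comparison. A larger fall was seen in 17 list genes with ABCE1 guides and in 14 with YAE1 guides. The part of the cell cycle in the fall of BRIP1 was not tested.

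**Figure D3:**
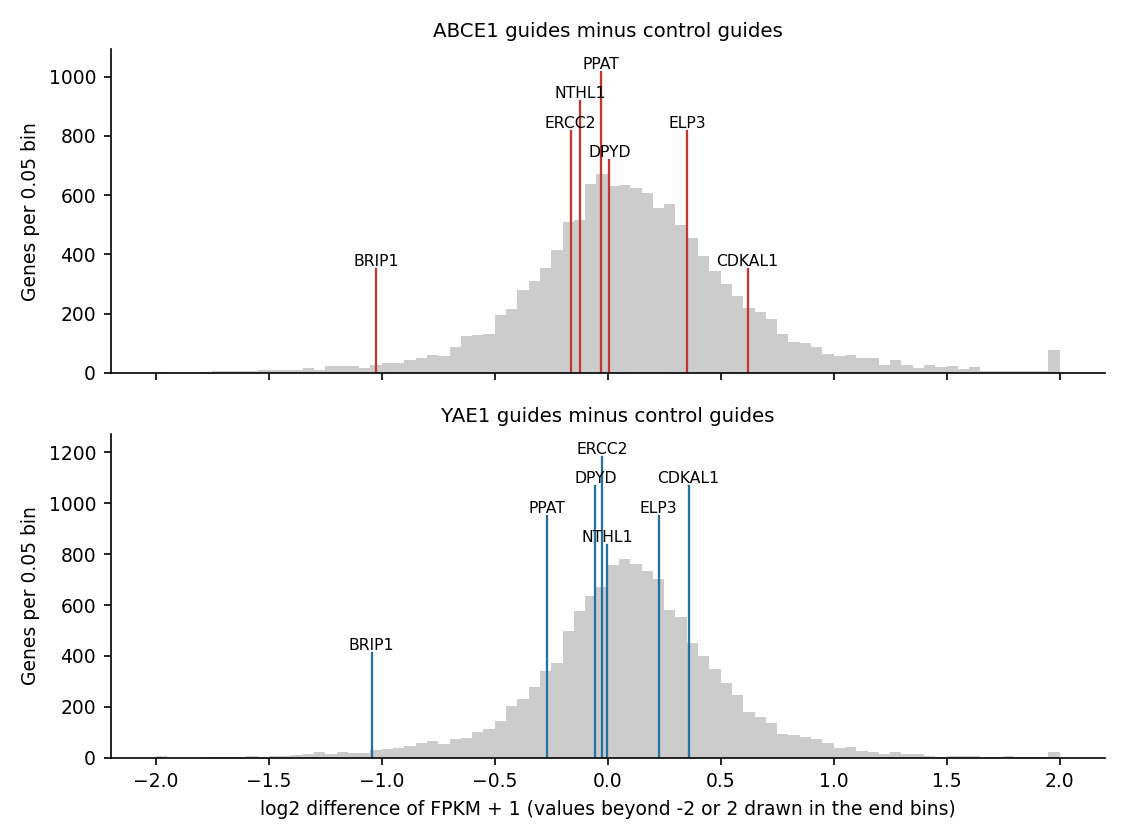
Number of tested genes (vertical axes) per 0.05 bin of log2 difference of FPKM + 1 (horizontal axis) for ABCE1 and YAE1 guides against control guides, with the 7 tested enzymes marked by lines whose height carries no value. BRIP1 lies in the lower tail in both panels, at -1.02 and -1.05, and the other genes lie between -0.27 and 0.62.

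ERCC2 (ENSG00000104884), also called XPD, is the helicase subunit of TFIIH that opens DNA in nucleotide excision repair. It stood at 3.84 and 3.63 FPKM in the controls, 3.29 and 3.16 with ABCE1 guides and 3.83 and 3.48 with YAE1 guides. The ABCE1 libraries were below both controls, whereas the YAE1 libraries overlapped them. The difference was -0.16 with ABCE1 guides (95% interval -0.34 to 0.01, limma adjusted p = 0.09) and -0.02 with YAE1 guides (-0.20 to 0.15, limma adjusted p = 0.79). Centring on the median gene moved the ABCE1 value to -0.30 (limma adjusted p = 0.012) and quantile normalization to -0.32 (limma adjusted p = 0.0086), so this call depends on the scaling.

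RTEL1 (ENSG00000258366), a helicase that dismantles telomeric loops and limits recombination, was near the limit of what these libraries could measure. It had 17 and 11 fragments in the controls (0.143 and 0.097 FPKM), 19 and 33.5 with ABCE1 guides (0.188 and 0.294 FPKM) and 8.5 and 17.5 with YAE1 guides (0.0785 and 0.159 FPKM). Both ABCE1 libraries were above the controls but differed widely from each other, and the YAE1 libraries overlapped the controls. Counting alone gives an error of 17.3% to 34.3% per library. In a fit added after the values were seen (limma-voom on fragments, 16384 genes with a mean of at least 10), the ABCE1 difference was 0.98 ± 0.39 (SE, limma adjusted p = 0.042), where 37.8% of genes were called higher. The call was lost without the first control library (1.26, limma adjusted p = 0.062), the second control library (0.71, limma adjusted p = 0.23) or the second ABCE1 library (0.65, limma adjusted p = 0.29). On log2(FPKM + 1) with no filter it was 0.15 (limma adjusted p = 0.27). RTEL1 overlaps a read-through transcript that joins it to TNFRSF6B, and how fragments common to both were assigned is not given in the sources used here, so its level is uncertain.

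NTHL1 and MUTYH are DNA glycosylases that carry an iron-sulfur cluster. NTHL1 (ENSG00000065057) removes oxidised pyrimidines. Its libraries stood at 4.88 and 4.82 FPKM in the controls, 4.83 and 3.96 with ABCE1 guides and 4.65 and 5.03 with YAE1 guides. The groups overlapped in every comparison, and the second ABCE1 library was the lowest. The difference was -0.12 with ABCE1 guides (95% interval -0.34 to 0.09, limma adjusted p = 0.28) and 0.00 with YAE1 guides (-0.22 to 0.21, limma adjusted p = 0.98). Without the second ABCE1 library the first value was 0.00 (limma adjusted p = 0.97), and centring on the median gene gave -0.26 (limma adjusted p = 0.041).

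MUTYH (ENSG00000132781) removes adenine mispaired with oxidised guanine. It had 35.5 and 32.5 fragments in the controls (0.333 and 0.319 FPKM), 16.5 and 19 with ABCE1 guides (0.181 and 0.185 FPKM) and 12.5 and 18 with YAE1 guides (0.128 and 0.182 FPKM). All 4 libraries with ABCE1 or YAE1 guides were below both controls. In the fit on fragments that was added after the values were seen, MUTYH was lower, with a log2 difference of -0.81 ± 0.31 with ABCE1 guides (SE, limma adjusted p = 0.032) and of -1.06 ± 0.32 with YAE1 guides (limma adjusted p = 0.01), where 18.3% and 15.9% of genes were called lower. The ABCE1 call was lost without either control library or either ABCE1 library (-0.78 to -0.84, limma adjusted p = 0.067 to 0.11), and the YAE1 call without the first YAE1 library (-0.82, limma adjusted p = 0.098). On log2(FPKM + 1) with no filter, where the pseudocount outweighs values this low, the differences were -0.16 (limma adjusted p = 0.16) and -0.20 (limma adjusted p = 0.12). Counting error was 16.8% to 28.3% per library.

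The tRNA modifiers ELP3 and CDKAL1 rose in both comparisons, except that ELP3 with YAE1 guides did not pass after centring. ELP3 (ENSG00000134014) is the catalytic subunit of Elongator, which begins the modification of wobble uridines. It stood at 8.72 and 8.78 FPKM in the controls, 11.4 and 11.5 with ABCE1 guides and 10.5 and 10.4 with YAE1 guides. The 3 groups did not overlap, with the controls lowest and the ABCE1 libraries highest. With ABCE1 guides the mean was 1.31-fold the control (log2 difference 0.35 ± 0.05, SE, limma adjusted p = 0.0009) and 1.19-fold with YAE1 guides (0.23 ± 0.05, limma adjusted p = 0.0075). After centring on the median gene the YAE1 value was 0.13 (limma adjusted p = 0.066). Larger rises were found in 27.1% of tested genes with ABCE1 guides and in 34.7% with YAE1 guides, so rises of this size were common in these data.

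CDKAL1 (ENSG00000145996) adds a methylthio group next to the anticodon of a lysine tRNA and is known from type 2 diabetes genetics. It stood at 3.96 and 3.67 FPKM in the controls, 6.25 and 6.53 with ABCE1 guides and 5.19 and 5.14 with YAE1 guides. Again the 3 groups did not overlap and the ABCE1 libraries were highest. With ABCE1 guides the mean was 1.68-fold the control (log2 difference 0.62 ± 0.06, SE, limma adjusted p = 0.00027) and 1.35-fold with YAE1 guides (0.36 ± 0.06, limma adjusted p = 0.0035). Of the tested genes 12.5% rose further with ABCE1 guides and 22.4% with YAE1 guides. Both calls held in the 15 alternatives run for each, with differences of 0.47 to 0.75 and 0.24 to 0.44. The values rest on 297.5 to 531.5 fragments per library.

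PPAT and DPYD act at opposite ends of nucleotide metabolism. PPAT (ENSG00000128059) catalyses the committed step of purine synthesis. It stood at 21.5 and 20.8 FPKM in the controls, 20.7 and 20.5 with ABCE1 guides and 16.4 and 18.3 with YAE1 guides. The YAE1 libraries were below all others. The ABCE1 libraries were also below the controls, but by little. With YAE1 guides the mean fell by 17.7% (log2 difference -0.27 ± 0.06, limma adjusted p = 0.0098). Without the first control library this call was lost (-0.25, limma adjusted p = 0.063), and without the first or the second YAE1 library the value was -0.19 (limma adjusted p = 0.025) or -0.34 (limma adjusted p = 0.0039). With ABCE1 guides the difference was -0.03 (95% interval -0.17 to 0.11, limma adjusted p = 0.68), while centring on the median gene gave -0.17 (limma adjusted p = 0.041). With 1502.5 to 2147 recovered fragments per library, PPAT had the smallest counting error of the 9 genes by these numbers, 2.16% to 2.58%.

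DPYD (ENSG00000188641), the first enzyme of pyrimidine breakdown and the main route by which 5-fluorouracil is inactivated, overlapped between all groups. It stood at 8.74 and 8.72 FPKM in the controls, 8.40 and 9.18 with ABCE1 guides and 7.94 and 8.82 with YAE1 guides. The difference was 0.01 with ABCE1 guides (95% interval -0.16 to 0.17, limma adjusted p = 0.93) and -0.05 with YAE1 guides (-0.22 to 0.11, limma adjusted p = 0.53). Centring on the median gene gave -0.13 (-0.29 to 0.03, limma adjusted p = 0.13) with ABCE1 guides. With YAE1 guides it gave -0.15 (-0.31 to 0.01, limma adjusted p = 0.098). The intervals thus depend on the scaling and rest on library-to-library spread that may be only technical. They do not show that DPYD was the same in all groups.

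YAE1 guides were also set directly against ABCE1 guides, which tests whether the levels of these genes differ between the 2 guide groups. Here 2 of the 7 tested genes were lower with YAE1 guides and 0 higher (limma, adjusted p under 0.05), beside 18.7% lower and 15.3% higher over all tested genes. Libraries did not overlap for ERCC2, which was above with YAE1 guides, and for ELP3, CDKAL1 and PPAT, which were below, 1 and 3 of the 7, beside 33.4% and 36.8% of all tested genes. At an unadjusted p under 0.05 limma gave 3 lower and 0 higher, and the share over all genes was not counted at that threshold. Limma-voom on fragments also called 2 lower and 0 higher after adjustment, beside 2786 lower and 2230 higher of all 12578 genes. These counts are no result about the enzymes as a group. CDKAL1 had a difference of -0.26 ± 0.06 (SE, limma adjusted p = 0.02) and PPAT of -0.24 ± 0.06 (limma adjusted p = 0.025). CDKAL1 thus rose less with YAE1 guides, whereas PPAT passed against control with YAE1 guides alone on the authors' scale. Both calls rest on few libraries. The CDKAL1 call was lost when any 1 of the 4 ABCE1 and YAE1 libraries was left out (-0.23 to -0.29, limma adjusted p = 0.055 to 0.11). PPAT did not pass without the first ABCE1 library (-0.23, limma adjusted p = 0.11), the second ABCE1 library (-0.24, limma adjusted p = 0.095) or the first YAE1 library (-0.16, limma adjusted p = 0.063). ELP3 had a difference of -0.13 (95% interval -0.24 to -0.01, limma adjusted p = 0.082) and ERCC2 one of 0.14 (-0.03 to 0.31, limma adjusted p = 0.18). NTHL1 had one of 0.12 (-0.10 to 0.33, limma adjusted p = 0.34) and DPYD one of -0.06 (-0.23 to 0.10, limma adjusted p = 0.51). RTEL1 and MUTYH were not among the 7. Both YAE1 libraries were below both ABCE1 libraries for RTEL1, and for MUTYH they overlapped. In the added fit on fragments the RTEL1 difference was -1.05 ± 0.40 (SE, limma adjusted p = 0.052). It was -1.35 without the first ABCE1 library and -0.72 without the second. It was -1.54 without the second YAE1 library and -0.57 without the first. Leaving out either control library gave -1.05. MUTYH had a difference of -0.25 ± 0.35 in that fit (SE, limma adjusted p = 0.62).

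**Figure D4:**
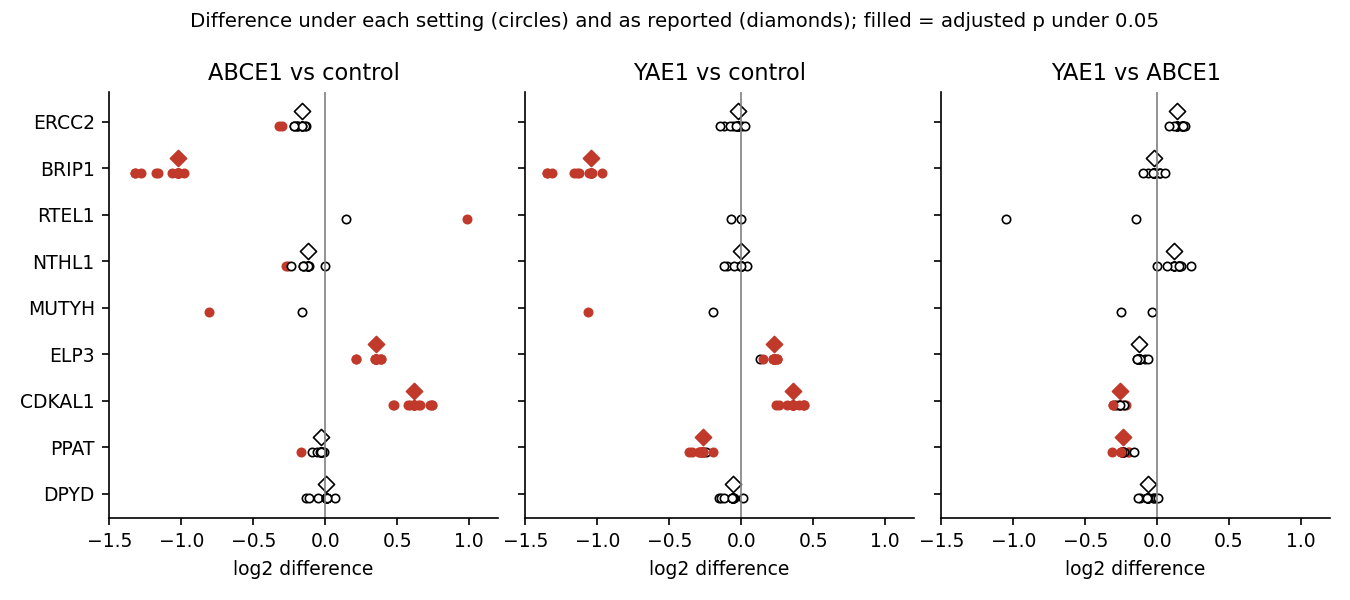
Log2 difference (horizontal axis) of each gene under each alternative processing setting (circles) and as reported (diamonds), filled where the adjusted p was under 0.05. RTEL1 and MUTYH have circles only, from the unfiltered fit and the added fit on fragments, and BRIP1 is filled in every setting of the first 2 panels.

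Over the 6 libraries, the pattern of each gene on the log2(FPKM + 1) scale was set beside that of the other 8. ELP3 and CDKAL1 were most like each other (Pearson r = 0.99), and so were BRIP1 and MUTYH (r = 0.978). MUTYH lay below the level for the tests and had only 12.5 to 35.5 fragments per library, so its pattern is uncertain. BRIP1 and ELP3 ran in opposite directions (r = -0.927). These values describe 6 libraries in 3 groups and mostly restate the differences between groups.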

How the data were processed

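RNA from 6 A375 libraries, 2 per group, was analysed. Per the submitters' processing notes the build was GRCh37, and the organism field reads Mus musculus although the cells are human. The authors deposited 1 table of FPKM values per gene and library. The aligner, the counter and the annotation are not named in these sources. Reference tables (mouse) matched 0 identifiers. No sequences are shown.

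The enzymes, lists and tests were chosen with earlier results of these data known. All 9 enzymes were named in every comparison. The 12578 genes averaging 1 FPKM or more were compared as log2(FPKM + 1) in limma 3.58.1 (R 4.3.3, 1 mean per group, all 6 libraries, trended eBayes, Benjamini-Hochberg over the genes tested, threshold 0.05), leaving 3 residual degrees of freedom and 3.6 from moderation. An exact permutation test of 2 against 2 libraries cannot go below p = 0.33 and was not used.

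Fragment numbers were recovered as the smallest multiples of 0.5 that fit a gene's 6 values, for 38267 of 38269 genes above 0, and a common factor per gene stays unknown. Counting errors were worked out from these smallest numbers and would be lower with such a factor. The fragment numbers summed to at least 99.4% of the totals. Replicates differed by more than counting noise (chi-square per degree of freedom 2.58 for control, 2.92 for ABCE1 and 5.85 for YAE1 libraries). The limma fit used 1 spread per gene for all groups, so intervals with YAE1 guides may be too narrow. Recovery and the limma test were tested on simulated data. The S-phase list took genes leading 90% or more of their S-phase marker pairs (10 pairs or more) and leading in no second phase. Alternatives were a pseudocount of 0.1, other filters, centring, quantile normalization, voom, only the 4 libraries compared, a replicate block and leaving out each library.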

Additional observations from a re-analysis of the deposited data

Results flagged for a closer look

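The rise of CDKAL1 was smaller with YAE1 than ABCE1 guides. The difference between the 2 guide groups was -0.26 on the log2(FPKM + 1) scale (limma adjusted p = 0.02), and both YAE1 libraries were below both ABCE1 libraries. For PPAT the same difference was -0.24 (limma adjusted p = 0.025), again with both YAE1 libraries below both ABCE1 libraries. Each was singled out because the 2 guide groups differed in the direct test, where 18.7% of all tested genes were lower. Loss of ABCE1 or YAE1 was not checked, so a difference between these libraries need not be one between the targets. Over the 15 alternatives, CDKAL1 passed in 10 (limma adjusted p = 0.01 to 0.11) and PPAT in 11 (limma adjusted p = 0.0064 to 0.11). These alternatives are not independent checks. Leaving out a control library or using only the 4 libraries compared kept the same difference for both genes. The calls lost when an ABCE1 or YAE1 library was left out are given above. Outlying libraries could not be looked for with 2 per group.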

How the results depend on the processing

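The fall of BRIP1 in both comparisons passed in each of the 14 alternatives that tested it, as did the rise of CDKAL1 in its 15. Fewer genes were tested with a mean of at least 5 FPKM, where BRIP1 dropped out, and the lower counts became 0 with ABCE1 and 1 with YAE1 guides. There 4 of the enzymes were tested, and 1916 and 1727 of all 7047 genes were lower. With ABCE1 guides 4 of 7 enzymes were lower after centring, 3 of 7 after quantile normalization and 2 of 9 with the added voom fit, against 1 of 7. Over all 12578 genes, 3915 were lower after centring and 3571 after quantile normalization, against 2563, so the lower calls rose in general. In the added voom fit 18.3% of genes were lower. With YAE1 guides centring left 1 higher, against 2, beside 3014 against 4303 over all genes. Between YAE1 and ABCE1 guides none was lower with no filter (0, against 2). There limma called 907 higher and 1184 lower of 38269 genes, against 1928 and 2351 of 12578, so calls became rarer in general. At an unadjusted p under 0.05 it gave 3 enzymes lower, and the share over all genes was not counted. Leaving out 1 library at a time gave -0.34 to -0.19 for PPAT with YAE1 guides against control. Between YAE1 and ABCE1 guides it gave -0.29 to -0.23 for CDKAL1 and -0.31 to -0.16 for PPAT. The calls lost in these fits are given above. Without a library its group holds 1 sample, assumed to vary like the others.

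With the replicate block, 2 enzymes were higher and 1 lower with ABCE1 guides, 2 and 2 with YAE1 guides, and 0 and 2 between them, as without it. The block changed no call among the enzymes. Over all genes it gave 4579 higher and 2479 lower with ABCE1 guides, against 4715 and 2563 without it. With YAE1 guides it gave 4130 higher and 2134 lower, against 4303 and 2214. Between YAE1 and ABCE1 guides it gave 1675 higher and 2103 lower, against 1928 and 2351. The libraries share only a number: differences of replicate 1 and 2 correlated across genes at -0.053, -0.013 and -0.0093 between groups. Depth limits RTEL1 and MUTYH, at 8.5 to 35.5 fragments.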
